A study of Mus musculus with 8 samples.

Results

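The insulin-like growth factor (IGF) axis was examined in outflow veins of mouse arteriovenous fistulas, as 9 genes chosen by name: the ligands Igf1 and Igf2, the receptor Igf1r and the binding proteins Igfbp2 to Igfbp7. All 9 were found, each once, among the 23358 gene rows of the deposited expression table, and 7 of them were abundant enough to be tested. The veins came from C57BL6J mice carrying a chronic kidney disease model, with a fistula made between jugular vein and carotid artery 28 days after the disease model was set up. In 4 samples mesenchymal stem cells (MSCs) had been placed on the adventitia, the outer coat of the vein, directly after surgery, 250000 cells from a C57 donor of the recipient's gender. The 4 control samples had received vehicle and are also labelled NT. Every vein was collected 3 days after the fistula was made. Age, the tissue the MSCs were grown from, and whether each sample was 1 animal or a pool are not stated in the labels. Donor and host share a strain background, so transcripts of the applied cells cannot be told apart from those of the vein.

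IGF-I and IGF-II are secreted growth factors that act through the receptor tyrosine kinase encoded by Igf1r, and so drive growth, migration and survival of vascular smooth muscle cells, fibroblasts and many other cells. Secreted binding proteins hold the ligands in the circulation and in the matrix, keep them from the receptor or release them after cleavage, and some also act on cells without a ligand. Growth hormone raises Igf1 transcription through its receptor, and binding protein levels differ widely between fibroblasts, smooth muscle, endothelium and fat, the main cell kinds around a vein.

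Values are RPKM, which scale the reads of a gene by its length and by the depth of its library, so levels of different genes can be compared per length. The recovered gene reads came to 26.9 to 38.2 mega-reads per sample. Members were read with 21825 to 72136 reads for Igfbp5, with at least 998 for each of the other 6 tested members, with 86 to 271 for Igf2, and with as few as 3 for Igfbp2. In bulk tissue, fewer cells of a type and less RNA per cell cannot be told apart, which applies to each difference below. The vein contained markers of fibroblasts (Col3a1 at a mean of 2071 RPKM in vehicle and 1932 in MSC samples), endothelium (Pecam1, 154 and 132), smooth muscle (Acta2, 114 and 130), macrophages (Lyz2, 2006 and 2898), neutrophils (S100a9, 291 and 488) and adipocytes (Fabp4, 1990.6 and 530.2). Skeletal muscle actin, Acta1, averaged 43.9 and 148 RPKM. Thyroid and salivary gland genes were near 0, with Dcpp1 at 0 in every sample, except for the amylase gene Amy1 at 12.4 and 4.35 RPKM.

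Binding proteins were the most abundant transcripts of the 9, and the ligand Igf2 was among the least abundant. Igfbp7 averaged 179 RPKM over all 8 samples, rank 212 among the 23358 rows. It was followed by Igfbp5 at 151 (rank 254), Igfbp4 at 97.3 (rank 428), Igfbp3 at 48.4 (rank 982) and Igfbp6 at 32.9 (rank 1528). Igf1 came next at 22.1 (rank 2433), then Igf1r at 3.56 (rank 9327), Igf2 at 0.820 (rank 12463) and Igfbp2 at 0.665 (rank 12801). Neighbours in the upper part of this order were not well separated. Igfbp7 was above Igfbp5 in 3 of 4 vehicle and in 3 of 4 MSC samples, and the 2 genes' values overlapped in both groups. Igfbp5 and Igfbp4 overlapped in both groups too, as did Igfbp3 and Igfbp6. Igfbp4 stood apart from Igfbp3 in vehicle samples, where its lowest value was 96.8 RPKM and the highest of Igfbp3 was 68.9, but not in MSC samples. Igf1, Igf1r and Igf2 did not overlap with each other in either group.

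**Figure D1:**
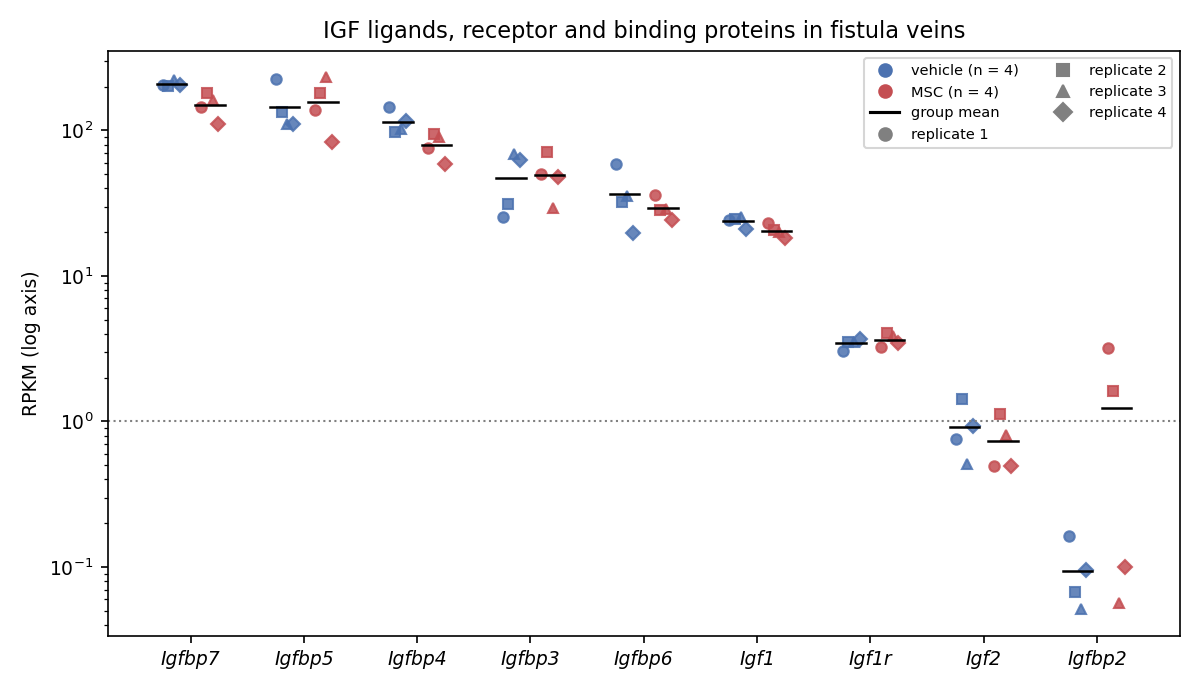
Level of each gene in each vein sample, in RPKM on a log axis, with genes ordered by their mean over 8 samples. Blue marks vehicle and red marks MSC samples (n = 4 each), marker shape gives the replicate, black bars are group means and the dotted line marks 1 RPKM, the minimum mean for testing. Igfbp7 and Igfbp4 are the genes whose red and blue points do not overlap, and in Igfbp2 the red points split into 2 high and 2 low samples.

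No member passed the test between MSC and vehicle samples. The test was limma on log2(RPKM + 1) over the 12129 genes whose mean reached 1 RPKM, with Benjamini-Hochberg adjustment over all of them and a threshold of 0.05. In that comparison 28 genes, 0.231%, passed, 3 of them (0.0247%) higher and 25 (0.206%) lower in MSC samples. Of the 7 members tested, 0 passed, and 2, Igfbp4 and Igfbp7, had an unadjusted p under 0.05, against 16.5% of all genes tested (6.36% lower and 10.1% higher). The same 2 were the members in which all 4 MSC samples lay below all 4 vehicle samples, against 4.17% of all genes tested, and no member had them all above, against 5.61% (9.78% in either direction). The members' log2 fold changes (log2FC, MSC minus vehicle, on the log2(RPKM + 1) scale) had a median of -0.21 beside 0.04 over all genes tested, with 4 below 0 and 3 above. The 2 members left out of the test, Igf2 and Igfbp2, lay just under the minimum mean, and the lowest member above it was Igf1r. Whether samples came from separate animals is not stated, so the p-values speak of the spread among these 8 samples. That need not be the spread among animals. Between replicates of a group, reads differed by a chi-square of 32.8 to 111.7 per degree of freedom, more than counting noise.

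**Figure D2:**
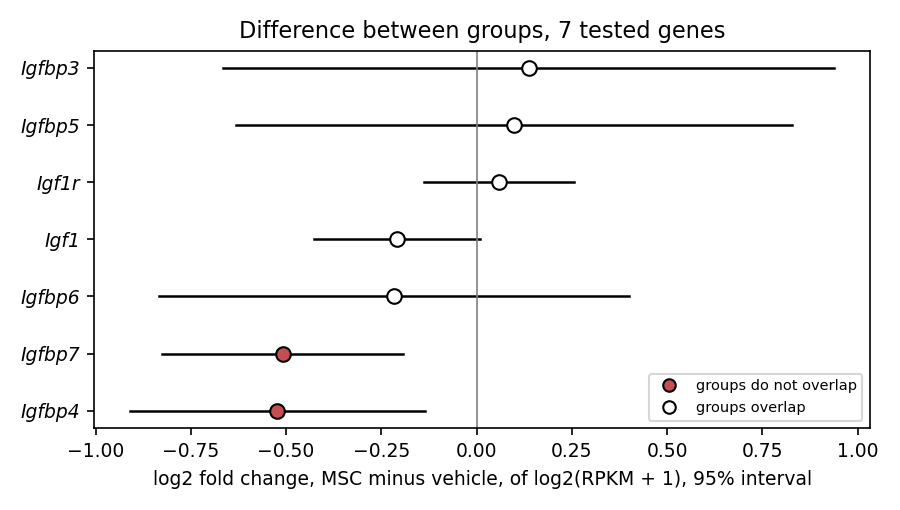
Log2FC of the 7 tested genes, MSC minus vehicle, on the log2(RPKM + 1) scale, with limma's 95% interval as a line. Filled points are genes whose groups do not overlap. The intervals of Igfbp4 and Igfbp7 lie below 0, from -0.91 to -0.14 and from -0.83 to -0.19, and those of the other 5 genes include 0.

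Among the ligands, Igf1 was the one transcribed at an appreciable level. Its values were 24.1, 24.7, 25.6 and 20.9 RPKM in vehicle replicates 1 to 4 and 23.0, 20.6, 20.2 and 18.1 in MSC replicates 1 to 4. All 4 MSC samples lay below the vehicle mean, but MSC replicate 1 was above vehicle replicate 4, so the groups overlapped. The means were 23.8 ± 2.07 in vehicle and 20.5 ± 2.02 in MSC samples (SD, n = 4 each), a log2FC of -0.21 (SE 0.10, 95% interval -0.43 to 0.01, limma adjusted p = 0.323). Igf1 lies at chr10:87858265-87937042 on the plus strand (GRCm38), and no exon of another gene overlaps its exons.

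Igf2, the imprinted fetal growth factor, was low in every vein. It was at 0.756, 1.44, 0.510 and 0.938 RPKM in vehicle and at 0.497, 1.12, 0.807 and 0.494 in MSC replicates 1 to 4. The groups overlapped almost fully, at 0.910 ± 0.392 and 0.731 ± 0.301 RPKM (SD, n = 4 each), and replicate 2 was the highest sample in both groups. Igf1 was 17.2 to 50.2 times the level of Igf2 in vehicle and 18.3 to 46.3 times in MSC samples. The Igf2 value is uncertain because its exons, within chr7:142650766-142666816 on the minus strand, overlap Gm49394 on the same strand and Igf2os on the opposite one.

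The receptor gene Igf1r had the narrowest range of the 9 genes. It was at 3.07, 3.54, 3.52 and 3.71 RPKM in vehicle and 3.23, 4.06, 3.87 and 3.45 in MSC replicates 1 to 4. The groups overlapped in part, with MSC replicates 2 and 3 above and vehicle replicate 1 below all samples of the other group, at 3.46 ± 0.276 and 3.65 ± 0.380 RPKM (SD, n = 4 each, and log2FC 0.06, SE 0.09, 95% interval -0.14 to 0.26, limma adjusted p = 0.78). The highest of the 8 samples was 1.32 times the lowest, against 1.41 for Igf1 and 2.91 for Igf2.

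Igfbp7 encodes a secreted relative of the binding proteins, with low affinity for IGFs, that vessel walls deposit in their basement membranes. It was the member with the smallest p. Its 4 vehicle samples lay close together at 206, 202, 223 and 206 RPKM, and the 4 MSC samples were at 144, 181, 161 and 110. Every MSC sample was lower than every vehicle sample, and the spread was wider among the MSC samples, with a coefficient of variation of 20.1% against 4.5%. The mean went from 209 ± 9.47 to 149 ± 29.9 RPKM (SD, n = 4 each), a difference of -28.8% (log2FC -0.51, SE 0.14, 95% interval -0.83 to -0.19, limma adjusted p = 0.136). Its exons, within chr5:77349240-77408041 on the minus strand, overlap those of Polr2b on the opposite strand, and whether counting used strand is unknown, so the value is uncertain.

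Igfbp4 encodes a binding protein that blocks IGF action until the protease PAPP-A cleaves it. Vehicle samples were at 144, 96.8, 102 and 116 RPKM and MSC samples at 75.3, 94.8, 90.1 and 59.2. The groups did not overlap, but the gap was narrow, with vehicle replicate 2 and MSC replicate 2 differing by less than the spread within either group. The mean went from 115 ± 21.3 to 79.9 ± 16.1 RPKM (SD, n = 4 each), a difference of -30.4% (log2FC -0.52, SE 0.17, 95% interval -0.91 to -0.14, limma adjusted p = 0.185). As a share of the summed RPKM of the 6 binding proteins, Igfbp4 made up 18.9% to 22.5% in vehicle and 16.7% to 18.2% in MSC samples, again without overlap.

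Because these were the 2 members whose groups did not overlap, their promoters are shown with that of Igfbp2, the member with the widest range. They run from 250 bases before to 50 bases after the annotated start and were taken from RefSeq (GRCm38.p6), which had 13 promoters for the 9 members. Capitals mark matches on either strand to a TATA box (TATAAA), a GC box (GGGCGG) or a CCAAT box (CCAAT), and neighbouring matches may share letters. The Igfbp4 promoter is chr11:99040994-99041293 on the plus strand, that of Igfbp7 is chr5:77407996-77408295 on the minus strand, and the first of 2 for Igfbp2 is chr1:72824230-72824529 on the plus strand.
Igfbp4: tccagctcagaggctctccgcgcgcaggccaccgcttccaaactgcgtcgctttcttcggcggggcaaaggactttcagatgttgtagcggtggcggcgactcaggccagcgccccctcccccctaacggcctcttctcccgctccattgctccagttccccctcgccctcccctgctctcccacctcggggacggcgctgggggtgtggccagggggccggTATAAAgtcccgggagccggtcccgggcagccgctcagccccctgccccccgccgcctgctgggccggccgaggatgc
Igfbp7: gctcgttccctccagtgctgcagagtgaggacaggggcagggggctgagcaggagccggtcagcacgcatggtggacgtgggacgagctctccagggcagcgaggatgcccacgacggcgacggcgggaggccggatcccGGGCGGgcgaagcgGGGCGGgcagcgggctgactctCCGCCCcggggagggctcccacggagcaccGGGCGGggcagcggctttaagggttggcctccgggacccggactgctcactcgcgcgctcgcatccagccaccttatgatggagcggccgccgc
Igfbp2: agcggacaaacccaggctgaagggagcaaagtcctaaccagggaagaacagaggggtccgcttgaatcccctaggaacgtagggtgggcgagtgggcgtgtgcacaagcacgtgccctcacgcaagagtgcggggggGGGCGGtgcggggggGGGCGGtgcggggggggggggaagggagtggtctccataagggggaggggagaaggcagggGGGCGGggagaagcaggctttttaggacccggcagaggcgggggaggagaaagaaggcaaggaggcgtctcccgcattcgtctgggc
Igfbp4 held 1 TATA box match and no GC box match, Igfbp7 held 4 GC box matches and the first Igfbp2 promoter held 3. The second Igfbp2 promoter, not printed, held no match to any searched motif, and which of the 2 is used in these veins is unknown. Among 32851 RefSeq mouse promoters of the same length, 13.6% held the TATA box letters, 35.7% the GC box letters and 37.4% the CCAAT letters. Igfbp4 and Igfbp7 had no searched motif in common in this window. A match describes the letters and does not mark a site in use.

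The fat cell markers, like Igfbp4 and Igfbp7, were lower in MSC samples. All 12 had log2FC below 0 (median -2.03), 10 of them without overlap between the groups, and none was absent from any sample. Their summed level was 3500 to 5049 RPKM in vehicle and 447 to 2043 in MSC samples. Within the MSC group, replicates 1 and 4 had the lowest adipocyte scores (mean log2(RPKM + 1) of the list, 3.91 and 3.83 against 5.37 and 5.92) and also the lowest Igfbp4 and Igfbp7. MSC replicate 2 had a lower score than MSC replicate 3 but more Igfbp4 (94.8 against 90.1 RPKM) and Igfbp7 (181 against 161). Within the vehicle group the sample with the lowest adipocyte score, replicate 1, had the highest Igfbp4. Igfbp7 was highest in vehicle replicate 3, at 223 RPKM and a score of 6.49, and was 206 in replicate 4, with the highest score, 6.88. Adding the adipocyte score to the fit gave a log2FC of -0.11 for Igfbp4 (limma adjusted p = 0.964) and -0.11 for Igfbp7 (limma adjusted p = 0.942). In the same fit other members moved away from 0, with log2FC of 0.95 for Igfbp5, 0.26 for Igf1r and -0.45 for Igfbp6 (limma adjusted p = 0.889, 0.889 and 0.917). The scores of the groups did not overlap, so treatment and adipocyte content cannot be told apart here. Of 5 pericyte markers, 4 had log2FC below 0 (median -0.52), with a summed level of 40.9 to 61.0 RPKM in vehicle and 30.8 to 41.0 in MSC samples. Of 10 endothelial markers, 8 did (median -0.20), with sums of 566 to 673 and 402 to 673 RPKM. For both lists, MSC replicates 1 and 4 again had the lowest scores of the MSC group. Pericyte scores were 2.436 and 2.438 there, against 2.881 and 2.773 in MSC replicates 2 and 3. Endothelial scores were 4.982 and 5.062, against 5.545 and 5.661. None of these markers was at 0, and the part of pericytes and endothelium in the Igfbp4 and Igfbp7 values was not tested.

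**Figure D3:**
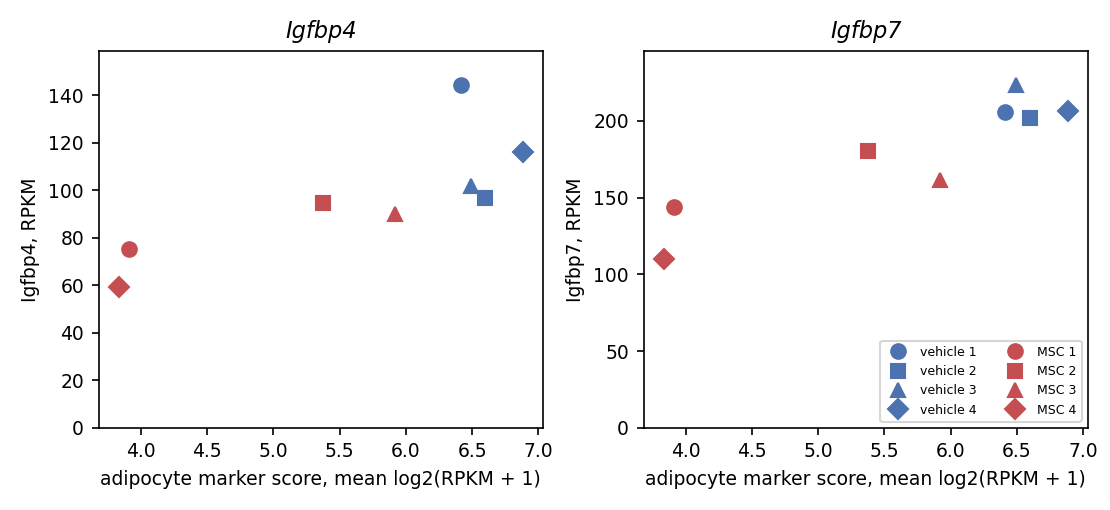
Level of Igfbp4 (left) and Igfbp7 (right) in RPKM against the adipocyte marker score, the mean log2(RPKM + 1) of 12 genes, with 1 point per sample (blue vehicle, red MSC, shape by replicate). The MSC samples lie at scores of 3.83 to 5.92 and the vehicle samples at 6.41 to 6.88, and MSC replicates 1 and 4 are lowest on both axes.

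Igfbp5, a binding protein that attaches to extracellular matrix, differed more between samples of a group than between the groups. It was at 224, 133, 110 and 110 RPKM in vehicle and at 137, 180, 232 and 83.0 in MSC replicates 1 to 4. The highest and the lowest of the 8 samples were both MSC samples, replicates 3 and 4. The means were 144 ± 54.2 and 158 ± 63.1 RPKM (SD, n = 4 each, and log2FC 0.10, SE 0.32, 95% interval -0.63 to 0.83, limma adjusted p = 0.911). This difference changed sign with single samples left out, going to -0.12 without MSC replicate 3, and to -0.01 without vehicle replicate 3 or without vehicle replicate 4. It was -0.24 with the skeletal muscle score in the fit and 0.95 with the adipocyte score (limma adjusted p = 0.58 and 0.889). The 4 samples highest in skeletal muscle score, vehicle replicate 1 and MSC replicates 1 to 3 (4.79 to 5.40, against 0.49 to 2.90 in the others), were also the 4 highest in Igfbp5. All 12 muscle markers had log2FC above 0, none was at 0, and their sums were 5.91 to 556 RPKM in vehicle and 12.7 to 746 in MSC samples.

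Igfbp3, which carries most IGF in blood plasma, varied widely in both groups. Vehicle replicates 1 and 2 were at 25.3 and 31.1 RPKM and replicates 3 and 4 at 68.9 and 63.1. MSC replicates 1 to 4 were at 50.2, 71.5, 29.5 and 47.9. MSC replicate 2 was the highest of all 8 samples, and the groups overlapped, at 47.1 ± 22.1 and 49.8 ± 17.2 RPKM (SD, n = 4 each, and log2FC 0.14, SE 0.36, 95% interval -0.67 to 0.94, limma adjusted p = 0.883). The sign changed without vehicle replicate 1 (-0.11), vehicle replicate 2 (-0.02) or MSC replicate 2 (-0.06). The balance of the 2 genes varied between samples: the ratio of Igfbp5 to Igfbp3 was 8.86 in vehicle replicate 1 and 7.86 in MSC replicate 3, and 1.59 to 4.27 in the other 6 samples. As a description over all 8 samples, Pearson's r between the 2 genes on the log2 scale was -0.55 and Spearman's rho -0.43. Igfbp4 and Igfbp7 had the highest Pearson's r of any pair of members, 0.88 (rho 0.91), over samples of both groups.

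Igfbp6, a binding protein that prefers IGF-II, was at 58.6, 32.2, 35.4 and 19.7 RPKM in vehicle and 35.9, 28.5, 28.6 and 24.4 in MSC replicates 1 to 4. Vehicle replicates 1 and 4 were the extremes, and the MSC samples lay between them. The means were 36.5 ± 16.2 and 29.4 ± 4.80 RPKM (SD, n = 4 each, and log2FC -0.22, SE 0.27, 95% interval -0.83 to 0.40, limma adjusted p = 0.74). Without vehicle replicate 1 the log2FC was 0.04. That sample was also the highest of the vehicle group in Igfbp4 and Igfbp5 and lowest in Igfbp3, and its fibroblast marker score, 7.37, was the highest of all samples, against 6.67 to 7.05 in the other 7. The part of fibroblast content in these values was not tested.

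**Figure D4:**
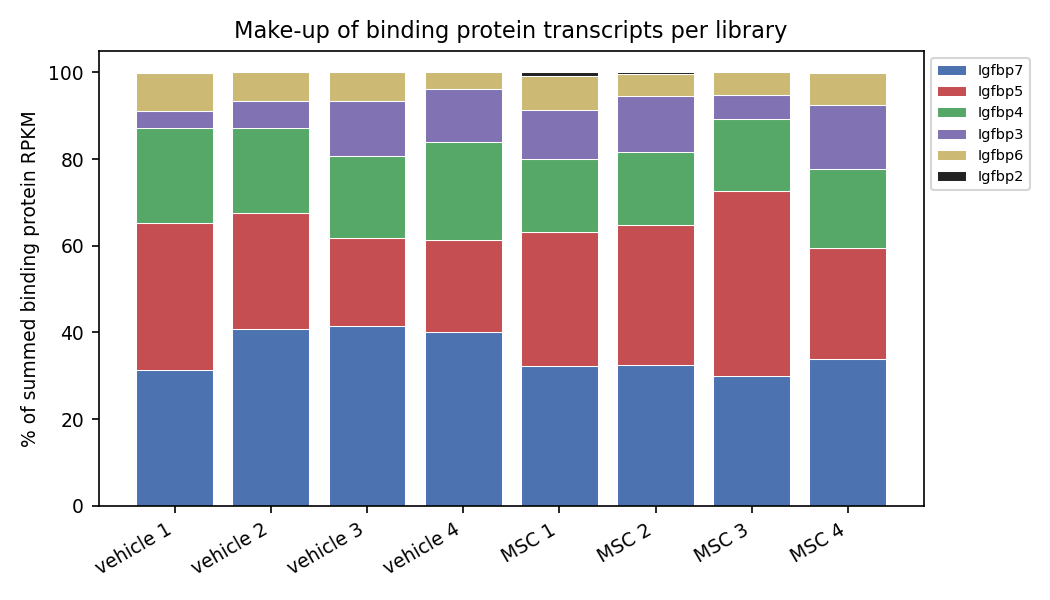
Share of each binding protein gene in the summed RPKM of the 6 binding protein genes, in percent, with 1 stacked bar per sample. Igfbp7 makes up 29.8% to 41.4% and Igfbp5 20.4% to 42.8% of the sum, and Igfbp4 is 18.9% to 22.5% in vehicle and 16.7% to 18.2% in MSC samples.

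The sum of the 6 binding protein genes was 552 ± 72.9 RPKM in vehicle and 467 ± 107 in MSC samples (SD, n = 4 each), and the groups overlapped. Igfbp7, Igfbp5 and Igfbp4 together made up most of it in each sample. The leading gene was Igfbp7 in 3 of 4 vehicle and 3 of 4 MSC samples. Igfbp5 led in vehicle replicate 1, with 34.0% against 31.3%, and in MSC replicate 3, with 42.8% against 29.8%.

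Igfbp2, a binding protein that also binds integrins, was all but absent from 6 of the 8 veins. It had 172 reads in MSC replicate 1 and 99 in MSC replicate 2, and 3 to 10 reads in each of the other 6. In RPKM this was 3.17 and 1.61 against 0.0566 and 0.101 in the other 2 MSC samples and 0.0514 to 0.163 in the vehicle samples. The MSC group was therefore split, with a mean of 1.23 ± 1.48 RPKM (SD, n = 4) between its high and low samples, and MSC replicates 3 and 4 lay within the vehicle range. With every gene above 0 kept in the test, the log2FC was 0.79 (limma adjusted p = 0.462). Igfbp2 lies at chr1:72824503-72852474, tail to tail with Igfbp5 at chr1:72857932-72874884 and 5457 bases from it. In MSC replicates 1 and 2 Igfbp5 was at 137 and 180 RPKM, inside the range of the other samples.

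MSC replicates 1 and 2 also had the highest neutrophil and macrophage marker scores, but not the highest lymphocyte score, which was 0.49 and 0.47 there, 1.39 in MSC replicate 3 and 0.28 to 0.82 in vehicle samples. The neutrophil score was 6.44 and 6.52 in MSC replicates 1 and 2 and at most 5.98 elsewhere, from 5 genes of which all had a positive log2FC and none was at 0. Summed neutrophil marker levels were 549 to 1323 RPKM in MSC and 207 to 776 in vehicle samples. The monocyte and macrophage score was 8.19 and 7.87 against at most 7.77 elsewhere, with 11 of 12 genes above 0 in log2FC, none at 0, and sums of 4613 to 8339 and 3749 to 4637 RPKM. Without MSC replicate 1 the log2 difference of Igfbp2 was 0.40. The part of these cells in the Igfbp2 values was not tested. The genes whose pattern over the 8 samples was most like Igfbp2 were Star (Pearson's r 0.97 on log2(RPKM + 1)), which moves cholesterol into mitochondria for steroid synthesis, the sphingomyelin synthase gene Sgms2 (0.96) and the caspase gene Casp6 (0.95). Star was at 3.64 and 2.17 RPKM in MSC replicates 1 and 2 and at 0.655 to 1.07 elsewhere.

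The most similar genes of the other members were found in the same way, by Pearson's r over 8 samples among the 12129 genes tested. These values describe patterns picked as the closest of many genes. For Igf1 they were Cd38 (0.98), an ectoenzyme of leukocytes, March1 (0.97), a ubiquitin ligase of antigen-presenting cells, and AI987944 (0.97). For Igf1r they were the basement membrane collagen gene Col15a1 (0.97), Brf2 (0.97) and Ppdpf (0.97). Igf2 had the loosest matches, with Cox15 (0.91), Darc (0.90) and Gdap10 (0.89).

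Among the binding proteins, Igfbp5 was closest to Pi16 (0.96), a marker of adventitial fibroblasts, then to Fcna (0.94) and Adamtsl5 (0.93). Igfbp6 was closest to Nmd3 (0.98), Pcolce2 (0.97), which enhances procollagen processing, and Mnat1 (0.97). Igfbp3 was closest to Vhl (0.98), which targets hypoxia-inducible factors for degradation, Hexim1 (0.96) and Zfp295 (0.95). Igfbp4 was closest to the phosphatase gene Ppm1a (0.98), Sbsn (0.98) and Clic5 (0.96), and Igfbp7 to Tmem161b (0.99), the complement gene C3 (0.97) and Zkscan5 (0.97). The 3 genes closest to Igfbp7 and 2 of the 3 closest to Igfbp4, Ppm1a and Sbsn, were lower in every MSC than in every vehicle sample. Over all genes tested this share was 4.17%. These genes were picked for following members whose groups did not overlap, so their separation largely follows from the choice and adds no separate result.

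Beyond the 9 members, 76 genes were followed in 8 lists, and 63 of these genes were tested. The lists held genes that feed, carry or regulate IGF signals. They also held 9 imprinted growth genes and 8 secreted proteins that share the IGFBP domain, which need not act on IGF signals. Of the 63 tested genes, 1 fell and 0 rose, against 0.206% and 0.0247% of all genes tested, and the median log2FC was -0.01. Groups did not overlap for 4 genes lower and 3 higher in MSC samples, against 4.17% and 5.61% of all genes tested. The gene that fell was Cish, a feedback inhibitor that growth hormone and cytokines induce through STAT5. It was at 7.43, 6.93, 6.98 and 5.69 RPKM in vehicle and 1.45, 2.34, 2.63 and 2.91 in MSC replicates 1 to 4, with no overlap. The means were 6.76 ± 0.744 and 2.33 ± 0.633 RPKM (SD, n = 4 each, and log2FC -1.23, SE 0.15, limma adjusted p = 0.0233). The call was kept in 12 of 19 alternatives (limma adjusted p from 0.013 to 0.889). It was lost with the adipocyte score in the fit (log2FC -1.12, limma adjusted p = 0.889), with no filter on low values (-1.23, 0.0745) and with a replicate block (-1.23, 0.1055). It was also lost without vehicle replicate 2 (-1.22, limma adjusted p = 0.0899) or 3 (-1.22, 0.0873) or MSC replicate 2 (-1.24, 0.0514) or 4 (-1.32, 0.072). Exons of Cish, within chr9:107296026-107302784, overlap Gm17040 and Gm17041 on the opposite strand.

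All 6 genes of the growth hormone list had log2FC below 0 (median -0.33), but not to a like degree. Stat5b (-0.001, limma adjusted p = 0.996) and Jak2 (-0.04, limma adjusted p = 0.849) were all but unchanged. Ghr, the growth hormone receptor, was at 50.9, 64.1, 63.8 and 71.7 RPKM in vehicle and 13.3, 32.9, 42.5 and 12.9 in MSC replicates 1 to 4. The groups did not overlap, but Ghr did not pass (log2FC -1.44, SE 0.36, limma adjusted p = 0.108). MSC replicates 1 and 4, with the lowest Ghr, were also those with the lowest adipocyte scores. With that score as a covariate the log2FC of Ghr was 0.05 (limma adjusted p = 0.972). The adipocyte scores of the groups did not overlap, so treatment and adipocyte content cannot be told apart for Ghr either. These MSC replicates also had the lowest pericyte and endothelial scores of their group, and the part of any cell type in the Ghr values was not tested. Without MSC replicate 3, Ghr passed (log2FC -1.74, limma adjusted p = 0.0316).

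Downstream of the receptor, 10 docking and adaptor genes had a median log2FC of -0.06 and 21 genes from PI3K to mTOR one of -0.04, with none past the threshold. The docking protein gene Irs1 was at 2.61 to 3.91 RPKM in vehicle and at 1.59 to 2.09 in MSC samples, without overlap (log2FC -0.52, limma adjusted p = 0.101). Its relative Irs2 had -0.46 (limma adjusted p = 0.165). Exons of Irs1 overlap Gm9747 and exons of Irs2 overlap 9530052E02Rik, each on the opposite strand. Pik3r1, the regulatory subunit of PI3 kinase, was at 13.6 to 18.8 and 9.45 to 11.9 RPKM, also without overlap (log2FC -0.59, limma adjusted p = 0.0723). Akt1, the kinase further down, was higher in MSC samples, narrowly without overlap. It was at 43.5 to 54.0 RPKM in vehicle and 54.3 to 66.3 in MSC samples (log2FC 0.31, limma adjusted p = 0.171). Pik3r1 passed in 2 of 20 alternatives, with samples scaled by the median of ratios (limma adjusted p = 0.0409) and with sample weights (limma adjusted p = 0.0485).

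The remaining partners of the axis showed no call. Igf2r, the receptor that clears IGF-II, was at 26.5 ± 3.50 and 31.13 ± 3.405 RPKM (SD, n = 4 each, and log2FC 0.23, limma adjusted p = 0.369), above Igf1r in every sample. The insulin receptor gene Insr was at 26.7 ± 6.18 and 21.0 ± 7.27 (SD, n = 4 each, and log2FC -0.37, limma adjusted p = 0.467). Igfals, which joins Igfbp3 and IGF in the plasma complex, averaged 1.33 and 0.614 RPKM, and Igfbp1, the neighbour of Igfbp3 on chromosome 11, had 0 to 4 reads. Among 9 tested proteases of binding proteins and inhibitors, the median was -0.09, and the smallest p belonged to the serine protease genes Htra1 (log2FC -0.24, limma adjusted p = 0.348) and Htra3 (-0.41, limma adjusted p = 0.42). Pappa, whose product cleaves Igfbp4, averaged 0.487 RPKM in vehicle and 0.787 in MSC samples and was too low to test. Of the RNA-binding proteins named for Igf2, Igf2bp2 was tested (log2FC 0.02, limma adjusted p = 0.945), and Igf2bp1 had at most 8 reads.

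**Figure D5:**
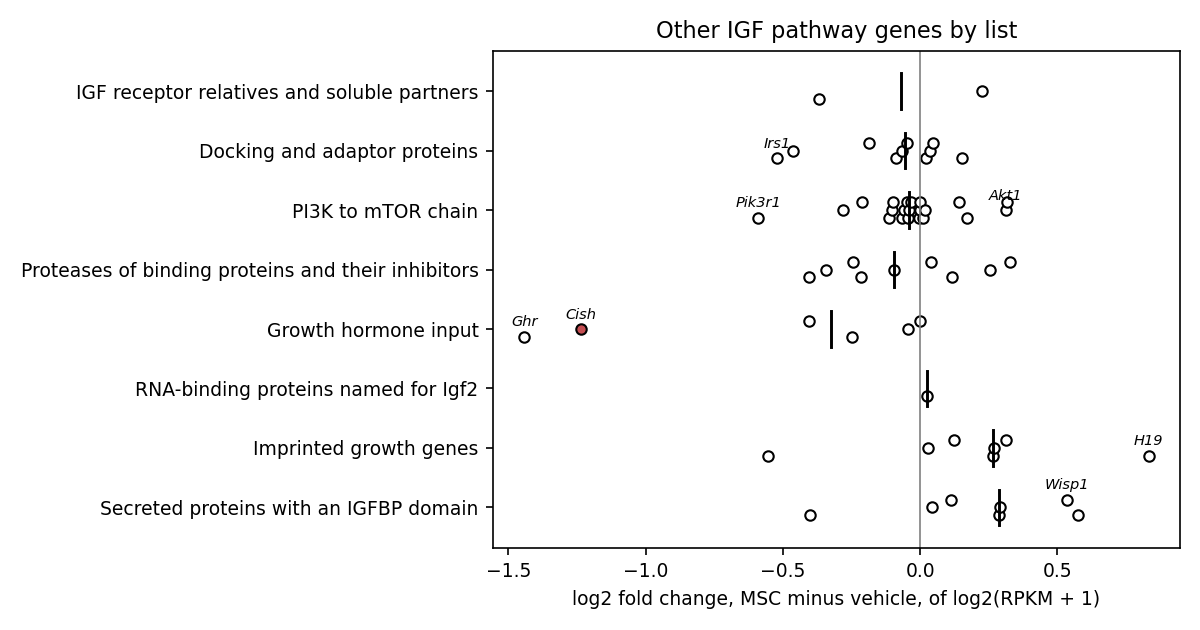
Log2FC, MSC minus vehicle, on the log2(RPKM + 1) scale, of the tested genes in 8 lists of other IGF pathway genes, with 1 point per gene and a black bar at each list's median. The filled point is Cish, the gene past the threshold, at -1.23, and the growth hormone list has the lowest median, -0.33.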

How the data were processed

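Bulk RNA sequencing libraries were made from 0.5 µg of total RNA with a TruSeq V2 kit, per the labels' protocols. Per the submitters' processing notes, mm10 was the genome build. The authors deposited RPKM values, 1 column per sample. Aligner, counting tool, annotation, strand use and filters: not given in the sources used here. Low RPKM values step in whole reads: all 16164 genes above 0 in every sample gave whole reads (tolerance 0.001 reads), a lower bound where reads share a factor.

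The test was limma 3.58.1 (R 4.3.3) on log2(RPKM + 1) with a mean-variance trend, 2-sided, without covariates, on the 12129 genes whose mean reached 1 RPKM. Fold changes on this scale understate those of low genes. The fit was also run on simulated data with independent noise for each gene. Such data lack the differences in tissue make-up that real samples share across genes, so no conclusion is drawn from that run. Members and lists were chosen with earlier results of these data known. Named genes were the 9 members, the 3 most correlated genes of each, the called genes and 2 smallest p per list, and each marker list's highest gene, of which some are printed. Igfbp1, Igfals, Pappa and Igf2bp1 were named after their values were seen. The closest replicates, MSC 2 and 3, differed by a chi-square of 32.8 per degree of freedom, more than counting noise. Coordinates (GRCm38, to which mm10 corresponds) are from GENCODE vM21. Alternatives covered the pseudocount, low-value filter, scaling, block, weights, trend, voom on recovered reads, 2 covariates and each sample left out.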

Additional observations from a re-analysis of the deposited data

How the results depend on the processing

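No member passed under any alternative in which it was tested, all 20 for 6 members, 19 for Igf1r and 1 (no filter) for Igf2 and Igfbp2 (lowest limma adjusted p = 0.0534, Igfbp4 with the skeletal muscle covariate). Igf1, Igfbp4 and Igfbp7 kept a negative sign in all, with log2 fold changes of -0.27 to -0.15, -0.70 to -0.11 and -0.61 to -0.11. Of 161 member values, 9 reversed. The size of a shift was set against the spread between replicates only for the untested Igf2 and Igfbp2. There 1 value moved by more, Igfbp2 with a pseudocount of 0.1 (1.77). Tested members were compared by sign and call alone, and some shifted widely without a reversal. With the adipocyte covariate Igfbp5 went from 0.10 to 0.95, Igfbp4 from -0.52 to -0.11, Igfbp7 from -0.51 to -0.11 and Igf1r from 0.06 to 0.26. Reversed were Igfbp3 with the adipocyte covariate (-0.0109) and without vehicle replicate 1 (-0.1122), vehicle replicate 2 (-0.0153) or MSC replicate 2 (-0.0563), Igfbp5 with the skeletal muscle covariate (-0.24) and without vehicle replicate 3 (-0.0094), vehicle replicate 4 (-0.0086) or MSC replicate 3 (-0.117), and Igfbp6 without vehicle replicate 1 (0.0398). With a sample left out, Igfbp3 ranged from -0.1122 to 0.3604, Igfbp5 from -0.117 to 0.3728 and Igfbp6 from -0.4681 to 0.0398. The cause was not tested.

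Over all genes, 28 passed, against 10 with a pseudocount of 0.1, 1 with no filter (more genes tested; 2666 at an unadjusted p under 0.05), 59 with equal RPKM sums, 93 with the median of ratios, 73 with sample weights, 66 with the skeletal muscle covariate, 0 with the adipocyte covariate, 0 with the replicate block (619 and 1768 genes at an unadjusted p under 0.05 in limma) and 0 to 170 with a sample left out (0 without vehicle replicate 2 or MSC replicate 4, where limma had 1512 and 1548 genes at an unadjusted p under 0.05, and 170 without MSC replicate 3). Of the genes in the 8 other lists, 1 passed. This was 0 with no filter, with a mean of at least 5 RPKM (which drops Cish), with the replicate block or with the adipocyte covariate. It was 2 with the median of ratios or sample weights, and 0 to 3 with a sample left out. The count was 0 without vehicle replicate 2 or 3 or MSC replicate 2 or 4, and 3 without MSC replicate 3. Deviations of same-numbered samples correlated at 0.143, -0.003, -0.332 and -0.122. With 4 samples per group these values cannot settle whether the replicate numbers pair the samples, and the labels do not say. Igf2 and Igfbp2 are limited by depth, with as few as 86 and 3 reads.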

Other observations

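Proteins that share the IGFBP domain without being classed as IGF binding proteins were examined as a list. Of 7 tested, 6 had log2FC (MSC minus vehicle, on the log2 scale) above 0, with a median of 0.29 beside 0.04 over all genes tested, and none passed. The gene below 0 was Crim1 (log2FC -0.40, limma adjusted p = 0.277). Wisp1 was at 6.98, 7.66, 8.14 and 6.34 RPKM in vehicle and at 11.5, 10.99, 8.62 and 13.1 in MSC replicates 1 to 4, without overlap (log2FC 0.53, SE 0.12, limma adjusted p = 0.099). It passed in 1 of 20 alternatives, without MSC replicate 3 (limma adjusted p = 0.0315), and its log2FC was 0.16 with the adipocyte score in the fit (limma adjusted p = 0.911). Cyr61 was at 41.8 ± 8.10 and 62.7 ± 10.8 RPKM (SD, n = 4 each, and log2FC 0.58, limma adjusted p = 0.135), with groups that overlapped.

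Among imprinted growth genes, H19, the noncoding RNA gene next to Igf2, was far above Igf2 in every sample. It was at 25.0, 33.7, 18.4 and 26.0 RPKM in vehicle and at 40.3, 35.6, 41.2 and 73.3 in MSC replicates 1 to 4. The groups did not overlap, though H19 did not pass (log2FC 0.83, SE 0.24, limma adjusted p = 0.145), and exons of Gm27483 and Gm27786 on the opposite strand and of Mir675 on the same strand overlap it. Its log2FC was 0.41 with the adipocyte score in the fit (limma adjusted p = 0.905) and 0.61 without MSC replicate 4. Of 7 imprinted genes tested, 6 had log2FC above 0 and 1, Peg3, a negative one (-0.55, limma adjusted p = 0.219).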
